A study of Mus musculus with 9 samples.

Results

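Nutrient and peptide transporters are membrane proteins that carry amino acids, sugars, monocarboxylates such as lactate, vitamins and short peptides across the plasma membrane or out of lysosomes. The genes described here are those whose symbol places them in the solute carrier families Slc1, Slc2, Slc3, Slc5, Slc6, Slc7, Slc15, Slc16, Slc36, Slc38, Slc43 and Slc46. By this rule 111 of the 19938 genes that the arrays measured under a single symbol were members, in 12 families. The rule reads symbols and no measured difference, but it was chosen with earlier results of these data known. Of the 111, 108 are carrier genes, while Slc2a4rg-ps is a pseudogene of another gene and Slc6a19os and Slc7a6os are neighbouring transcripts, which share only the form of the name.

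The data are 9 microarrays, 3 for each of 3 populations of dendritic cell (DC) precursors sorted by flow cytometry from mouse bone marrow. The populations were common DC progenitors without the reporter (Zbtb46- CDPs), those with it (Zbtb46+ CDPs), and Pre-CD8 DCs, the precursors of the CD8 lineage now called cDC1, and every array came from heterozygous Zbtb46-GFP reporter mice, without a treatment or an age in the labels. The reporter marks cells that transcribe Zbtb46, a transcription factor of classical DCs. No label tells if replicates came from different mice or from 1 pool, and the sort gates are not stated, so the p-values reflect array-to-array spread that may be technical.

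Growing cells import essential amino acids through heteromeric carriers, in which a light chain of the Slc7 family carries the substrate and the heavy chain encoded by Slc3a2 brings it to the surface. Monocarboxylate carriers of the Slc16 family move lactate and pyruvate with protons and need a small partner protein, basigin or embigin, to reach the membrane. A different group sits in lysosomes and endosomes, where Slc15a3, Slc15a4, Slc36a1, Slc38a9 and Slc46a3 products move digested peptides and amino acids or report them to the growth kinase mTORC1. In DCs the last group lies next to the compartments in which Toll-like receptors and antigen are handled.

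Levels are log2 of the deposited RMA signal. A level at or below 6.82, the median of the whole table, was not shown to lie above background, and a called difference between a level above it and one at or below it may understate the change in transcript, so it is given as at least its value. Where both levels lie at or below it, the difference is given as measured and the gene is called dim. Levels of different genes come from different probes and were not set against each other. "Rose" and "fell" are used where the limma fit over all genes gave an adjusted p under 0.05.

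The labels were checked against marker genes before the carriers were read. Of 10 cDC1 markers, the number at or below the table median was 5 in Zbtb46- CDPs, 3 in Zbtb46+ CDPs and 1 in Pre-CD8 DCs (Cd8a itself, at 6.73), and none of 8 CDP markers was at or below it in any population. Replicate 1 of both CDP populations stood apart: Xist was at 5.59 and 5.30 there and between 11.85 and 12.29 on the other 7 arrays. Summed signal of 10 neutrophil secondary granule genes was 5519 on the first of these arrays and 18335 on the second, against 780 to 1875 on the other 7. Summed signal of the 4 primary granule genes Mpo, Prtn3, Elane and Ctsg was 26635 to 26780 in Zbtb46- CDPs, 7212 to 14198 in Zbtb46+ CDPs and 436 to 464 in Pre-CD8 DCs. Their part in the carrier differences was not tested, and the calls that change without the 2 arrays are given after the 3 comparisons and beside genes described singly. In sorted bulk samples fewer cells of a type and less RNA per cell cannot be told apart.

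Most members were dim. In 60 of the 111, all 3 population means lay at or below the table median, from 4.29 to 6.77. Of these only the peptide carrier Slc15a2 was called in any comparison. Because the cut is the median of the whole table, many probe sets outside the rule lie below it too. The share of all genes that was dim, and the share of dim genes that was called, are not given here. Over the 3 pairwise comparisons 23 members were called at least once and 88 were not, beside 22% of all genes called at least once. The moderated F test over the populations called 22 members, beside 19.1% of all genes. Among the 23, the means of 15 (65.2%) ran downward from Zbtb46- CDPs through Zbtb46+ CDPs to Pre-CD8 DCs, an order that 28.9% of all genes called at least once had, and the means of 4 (17.4%) ran upward, as did those of 23.4% of all such genes. These shares are a description and were not tested.

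**Figure D1:**
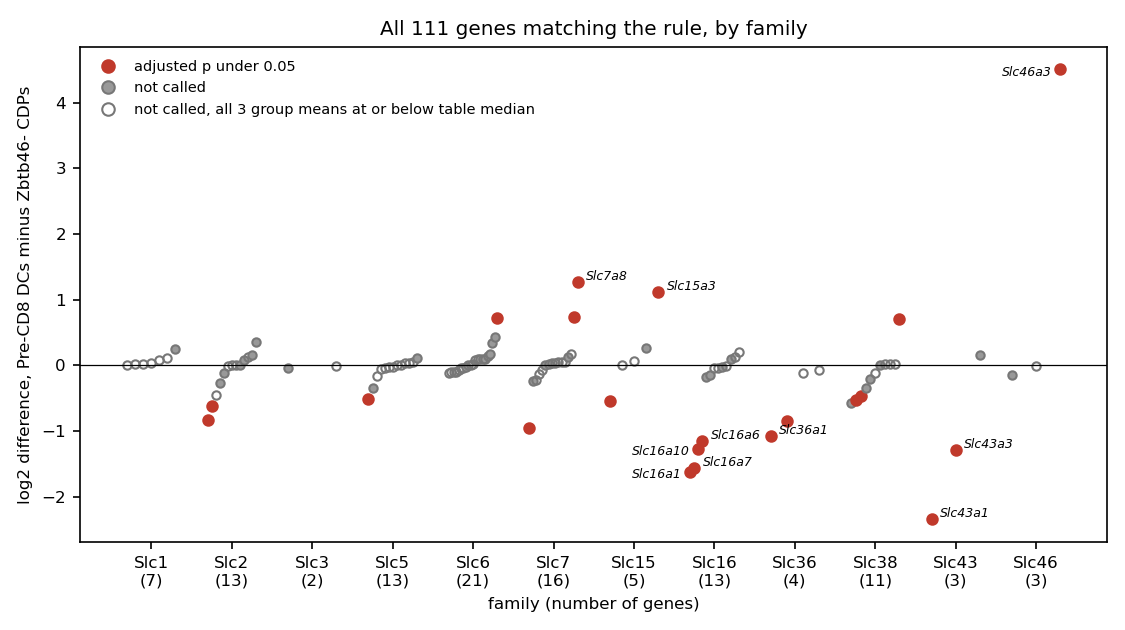
Log2 difference of Pre-CD8 DCs minus Zbtb46- CDPs (vertical axis) for each of the 111 genes, by family, with the number of genes in brackets. Filled red points passed an adjusted p under 0.05, grey points did not, and open points did not pass and had all 3 population means at or below the table median. Slc46a3 stands at 4.51 and Slc43a1 at -2.34, and most genes lie near 0.

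The sequences before a transcript start are shown for 4 carriers that the results turn on. Slc46a3 rose at both steps. Slc43a1, Slc16a1 and Slc36a1 fell and hold the same motif, which members without a call hold too. Each sequence is the 250 bases before a transcript start in RefSeq (GRCm38.p6), 5′ to 3′ on the gene's strand. Capitals mark the letters CACGTG, the E-box read by Myc, Max and the lysosomal regulators of the Tfeb family. The windows are chr5:147894816-147895065 on the minus strand for Slc46a3, and on the plus strand chr2:84840073-84840322 for Slc43a1, chr3:104638414-104638663 for Slc16a1 and chr11:55204090-55204339 for Slc36a1. The Slc43a1 window lies inside the annotated gene, which begins at 84838855, so it precedes an internal start. The Slc46a3 and Slc36a1 windows overlap the annotated beginning of their genes, at 147894861 and 55204322.
Slc46a3: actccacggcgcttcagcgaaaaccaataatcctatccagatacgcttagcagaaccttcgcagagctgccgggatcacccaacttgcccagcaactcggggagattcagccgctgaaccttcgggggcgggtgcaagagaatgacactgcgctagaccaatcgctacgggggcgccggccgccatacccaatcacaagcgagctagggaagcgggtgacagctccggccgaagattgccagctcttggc
Slc43a1: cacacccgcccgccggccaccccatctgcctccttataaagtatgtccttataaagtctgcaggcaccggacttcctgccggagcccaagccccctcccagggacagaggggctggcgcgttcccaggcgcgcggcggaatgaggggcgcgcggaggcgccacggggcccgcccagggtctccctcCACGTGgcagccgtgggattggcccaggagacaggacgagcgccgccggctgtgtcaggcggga
Slc16a1: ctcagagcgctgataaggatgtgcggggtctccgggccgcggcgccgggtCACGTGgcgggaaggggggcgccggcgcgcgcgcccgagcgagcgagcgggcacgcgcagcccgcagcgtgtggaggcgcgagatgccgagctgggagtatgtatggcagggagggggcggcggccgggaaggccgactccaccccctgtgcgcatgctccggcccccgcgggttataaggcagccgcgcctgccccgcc
Slc36a1: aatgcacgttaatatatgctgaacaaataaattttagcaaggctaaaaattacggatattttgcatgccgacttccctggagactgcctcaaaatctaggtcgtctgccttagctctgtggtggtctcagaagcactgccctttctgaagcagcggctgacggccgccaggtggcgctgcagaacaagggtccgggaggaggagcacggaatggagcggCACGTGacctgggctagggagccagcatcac

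Promoters of 300 bases, 250 before and 50 after a transcript start, were found for 83 of the 111 members and for 18 of the 23 that were called. CACGTG occurred in 12 of 106 member windows and in 7.15% of all 32851 windows in the table. Among the 18 called members it occurred in 3 (Slc43a1, Slc16a1 and Slc36a1), beside 12 of all 83 members (14.5%). A link between the motif and the falls was not tested. Its first base was at -64 from the internal start in Slc43a1 and at -200 from the start in Slc16a1. In Slc36a1 a further copy spanned the start used. Slc46a3 had no CACGTG, and none of TGATGNAA (an element of Atf4 and C/EBP), the interferon-regulatory factor element (GAAA, 2 bases of any kind, GAAA), the composite of Ets and interferon-regulatory factors (GGAA, 2 bases of any kind, GAAA) or TGANTCA (AP-1), all searched on both strands. The interferon-regulatory and composite elements can overlap. The same 4 motifs, in this order, stood in 3.97%, 3.44%, 2.72% and 7.81% of all windows. Slc7a7 held TGATGNAA and the composite element, and Slc2a9 and Slc6a12 held TGANTCA. A match describes letters and is not a shown binding site.

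The first comparison asks how carriers differ between reporter-positive and reporter-negative CDPs. Lysosomal Slc46a3 and Slc15a3 were higher in Zbtb46+ CDPs, by at least 3.12 and by 1.35 on the log2 scale. The lactate and pyruvate carriers Slc16a1 and Slc16a7 were lower, by at least 1.19 and by 1.10, as was the neutral amino acid carrier Slc43a1, by 1.56. Of the 111 members 4 rose and 10 fell, which is 12.6% called, beside 14.4% of all genes (3.85% higher and 10.6% lower), so the share was close to that of all genes. The arrays of the groups did not overlap in 29 members (26.1%, beside 29.3% of all genes), and the median difference was 0.06, beside 0.04 over all genes. Without the 2 arrays low in Xist, 7 members were higher and 15 lower (19.8% called, beside 22.5% of all genes), and without replicate 1 of the Zbtb46+ CDPs alone 8 were higher and 19 lower (24.3%, beside 26.4%).

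The second comparison sets Pre-CD8 DCs against Zbtb46+ CDPs. In Pre-CD8 DCs Slc46a3 rose again, by 1.39, the amino acid light chain Slc7a8 rose by at least 1.23, and the nucleobase carrier Slc43a3 and the proton-coupled amino acid carrier Slc36a1 fell by 0.92 and 0.95. Of the 111 members 5 rose and 4 fell, which is 8.11%, beside 6.62% of all genes (4.76% higher and 1.86% lower). The arrays did not overlap in 28 members (25.2%, beside 22.9%), and the median difference was -0.09, beside -0.03. After quantile normalization of the arrays 5 were higher and 8 lower (11.7%, beside 7.04% of all genes), and without the 2 arrays low in Xist 8 were higher and 9 lower (15.3%, beside 20.4%). Without replicate 1 or without replicate 3 of the Pre-CD8 DCs, 4 were higher and 1 lower (4.5%, beside 3.32%).

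Over the whole span, Pre-CD8 DCs against Zbtb46- CDPs, 6 members rose and 15 fell. This was 18.9% called, beside 15.7% of all genes (6.43% higher and 9.23% lower). The arrays did not overlap in 37 members (33.3%, beside 33.7%), and the median difference was 0.00, beside 0.01 over all genes. Without the 2 arrays low in Xist, 7 were higher and 18 lower (22.5% called, beside 20.2% of all genes). All 3 comparisons use the same 9 arrays and each population enters 2 of them, so their calls are not separate evidence.

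Without the 2 arrays low in Xist, 9 members gained a call at the first step and Slc43a3 lost its call, 8 gained one at the second step and 4 over the whole span. Of those described singly, the gains at the first step were in Slc7a5, Slc36a1, Slc5a3 (-0.46, adjusted p = 0.0124), Slc7a7 (0.31, adjusted p = 0.0153) and Slc15a2 (-0.33, adjusted p = 0.0199). At the second step they were in Slc7a5, Slc43a2, Slc36a4 (-0.55, adjusted p = 0.00144), Slc16a7 (-0.48, adjusted p = 0.00899) and Slc16a3 (-0.24, adjusted p = 0.0472), and over the whole span in Slc7a5 (-0.27, adjusted p = 0.0376). The other gains were in Slc2a2, Slc6a6, Slc6a17, Slc16a4, Slc38a7 and Slc38a10, genes named here only because their calls changed. Slc38a10, for example, had a whole-span difference of -0.46 (adjusted p = 0.00482) without these arrays and of -0.58 (adjusted p = 0.0592) with them.

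**Figure D2:**
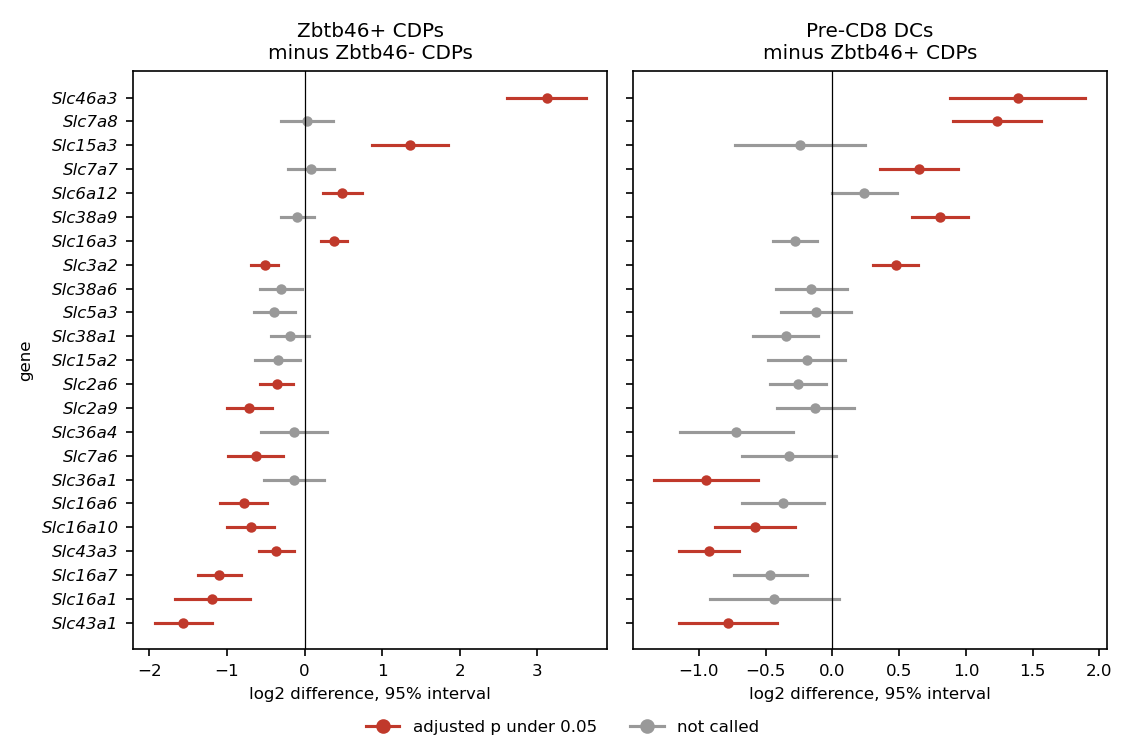
Log2 differences (points) with 95% intervals (lines) for the 23 genes called in at least 1 comparison, for Zbtb46+ CDPs minus Zbtb46- CDPs (left) and Pre-CD8 DCs minus Zbtb46+ CDPs (right), ordered by the difference over both steps. Red marks an adjusted p under 0.05. The panels differ in the range of their axes, and both use the Zbtb46+ arrays, on opposite sides of the difference.

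The lysosomal and peptide carriers were led by Slc46a3, a lysosomal membrane carrier related to the proton-coupled folate carrier. Its log2 signal was 6.95, 6.76 and 6.73 in Zbtb46- CDPs, 10.56, 9.58 and 9.66 in Zbtb46+ CDPs, and 11.32, 11.37 and 11.27 in Pre-CD8 DCs. No arrays of different populations overlapped, and replicate 1 was the highest of the Zbtb46+ CDPs. Pre-CD8 DCs averaged 11.32 ± 0.05 and Zbtb46- CDPs 6.81 ± 0.12 (SD, n = 3 each), a difference of at least 4.51 (SE 0.223, limma adjusted p = 2.04e-06), which is at least 22.8-fold. The steps were at least 3.12 (95% interval 2.61 to 3.62, adjusted p = 5.95e-05) and 1.39 (0.88 to 1.90, adjusted p = 0.00694). The relatives of Slc46a3 did not pass the test. Slc46a1, the proton-coupled folate carrier, averaged 7.01, 6.93 and 6.86 along the 3 populations, and Slc46a2 averaged 5.43, 5.56 and 5.42, all below the table median.

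Slc15a3 and Slc15a4 encode proton-coupled carriers of histidine and small peptides in endosomes and lysosomes, and Slc15a4 is known for its part in Toll-like receptor signalling. Slc15a3 read 8.41, 7.88 and 7.88 in Zbtb46- CDPs, 9.89, 9.09 and 9.27 in Zbtb46+ CDPs and 9.30, 9.0 and 9.20 in Pre-CD8 DCs. All arrays of the later populations were above all those of the Zbtb46- CDPs, and the later populations overlapped each other. It was 2.56-fold higher in Zbtb46+ CDPs (log2 difference 1.35, SE 0.215, adjusted p = 0.00347) and differed between Pre-CD8 DCs and Zbtb46+ CDPs by -0.24 (95% interval -0.73 to 0.24, adjusted p = 0.591). Slc15a4 averaged 9.44 ± 0.07, 9.69 ± 0.20 and 9.69 ± 0.18 along the 3 populations. Its difference of Zbtb46+ over Zbtb46- CDPs was 0.26 (95% interval -0.01 to 0.53, adjusted p = 0.192), and after quantile normalization it was 0.40 with adjusted p = 0.0366. Slc15a2, a peptide carrier of the cell surface, was dim throughout and 0.54 lower in Pre-CD8 DCs than in Zbtb46- CDPs (6.12 ± 0.06 against 6.66 ± 0.22, adjusted p = 0.0183). The call was lost without replicate 2 or without replicate 3 of the Pre-CD8 DCs.

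Slc36a1, a proton-coupled carrier that takes small amino acids out of lysosomes, and its relative Slc36a4 were lower in Pre-CD8 DCs. Slc36a1 read 9.38, 9.48 and 9.47 in Zbtb46- CDPs, 9.75, 9.04 and 9.12 in Zbtb46+ CDPs and 8.20, 8.52 and 8.36 in Pre-CD8 DCs. Every Pre-CD8 array was below every CDP array, while the CDP populations overlapped. It fell by 1.08 against Zbtb46- CDPs (SE 0.172, adjusted p = 0.00233) and by 0.95 against Zbtb46+ CDPs (adjusted p = 0.0124). The second call was lost without replicate 1 or without replicate 3 of the Pre-CD8 DCs, and in a fit of these 2 groups alone. Between the CDP populations the difference of -0.14 had adjusted p = 0.62, and without the 2 arrays low in Xist it was -0.39 with adjusted p = 0.0356. Slc36a4 fell by 0.85 in Pre-CD8 DCs against Zbtb46- CDPs (8.05 ± 0.05 against 8.90 ± 0.36, adjusted p = 0.0138). This call was lost without replicate 1 of the Pre-CD8 DCs. Between Pre-CD8 DCs and Zbtb46+ CDPs the arrays of Slc36a4 did not overlap, and the difference of -0.72 did not pass (adjusted p = 0.0571). After quantile normalization that difference was -0.82 and passed (adjusted p = 0.00579).

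Slc38a9, the lysosomal carrier that reports arginine to mTORC1, was measured by 2 probe sets that disagreed. The brighter, which the rule selects, read 8.86, 8.89 and 8.78 in Zbtb46- CDPs, 8.56, 8.79 and 8.91 in Zbtb46+ CDPs and 9.50, 9.55 and 9.61 in Pre-CD8 DCs. By this probe set Slc38a9 rose by 0.80 in Pre-CD8 DCs against Zbtb46+ CDPs (adjusted p = 0.00124) and by 0.71 against Zbtb46- CDPs (adjusted p = 0.000755). The other probe set averaged 8.65 ± 0.07 in Pre-CD8 DCs, 8.54 ± 0.22 in Zbtb46+ CDPs and 8.44 ± 0.13 in Zbtb46- CDPs. Its differences over the same groups were 0.11 (adjusted p = 0.652) and 0.21 (adjusted p = 0.333). The rise therefore rests on the probe set chosen.

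**Figure D3:**
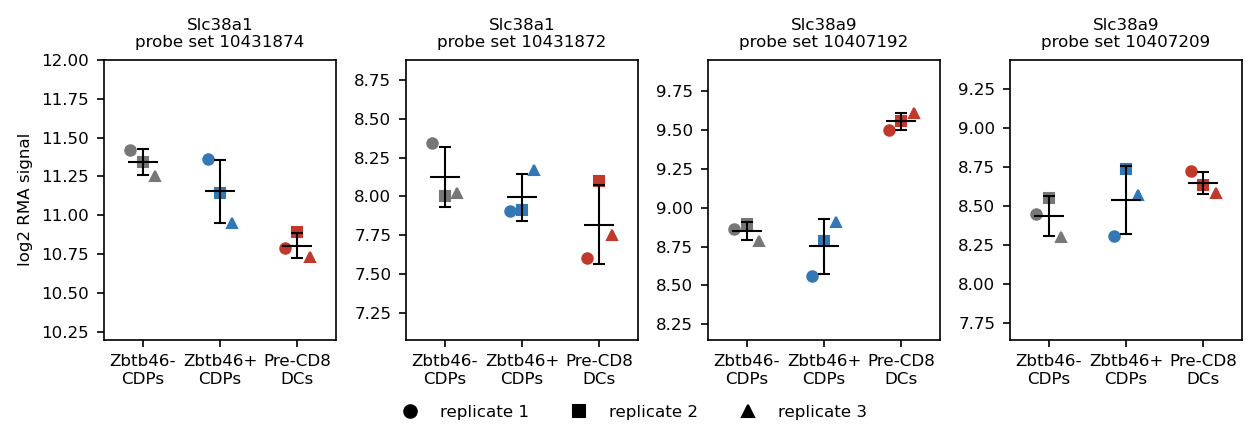
Log2 RMA signal (vertical axis, each panel spanning the same range) of the 2 probe sets of Slc38a1 and the 2 of Slc38a9 in the 3 populations. Symbols are replicates, and bars are the mean and SD (n = 3). Slc38a9 is higher in Pre-CD8 DCs by the probe set on the left of its pair, and the other averages 8.65 there and 8.54 in Zbtb46+ CDPs.

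**Figure D4:**
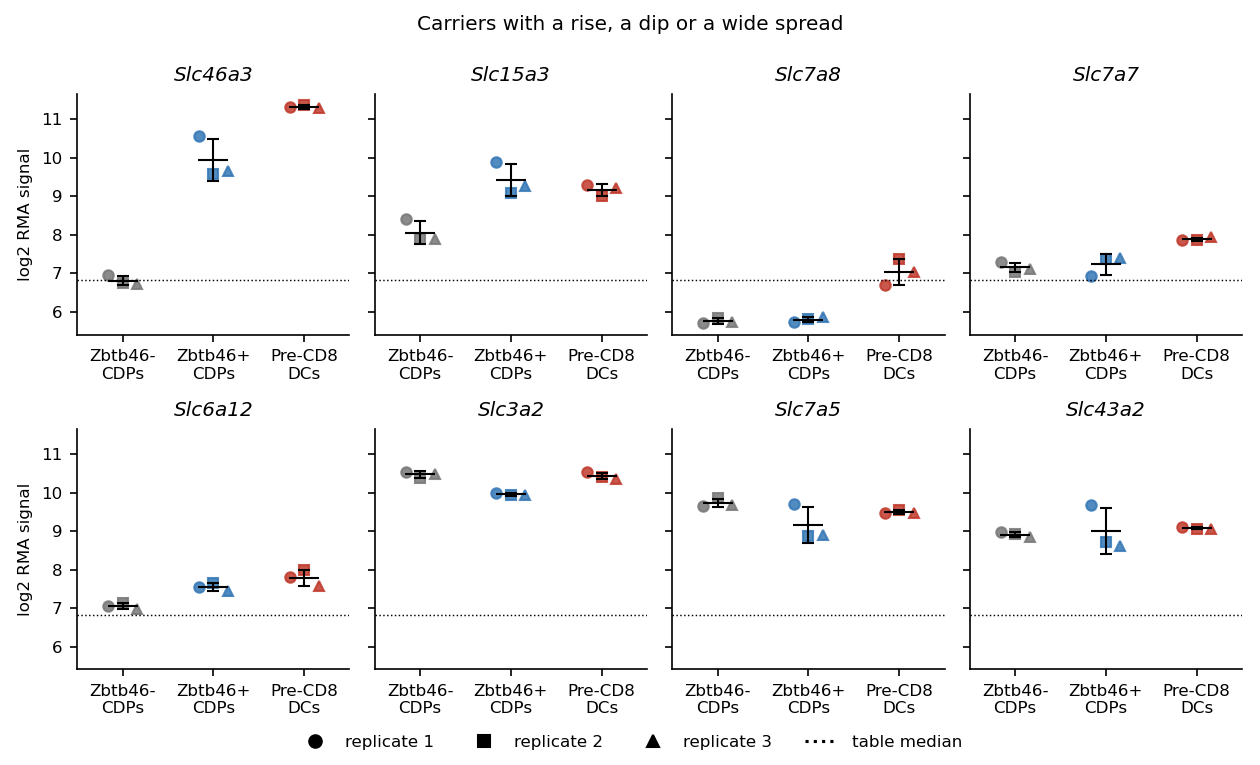
Log2 RMA signal (vertical axis) of 8 carriers on each array of the 3 populations, with the mean and SD as bars (n = 3), replicates as symbols and the table median as a dotted line. Slc46a3 is higher in each later population, Slc3a2 is lowest in Zbtb46+ CDPs, and replicate 1 of the Zbtb46+ CDPs lies above the others for Slc7a5 and Slc43a2.

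Among the heteromeric amino acid carriers, the shared heavy chain Slc3a2 was lowest in the middle population. It read 10.54, 10.37 and 10.49 in Zbtb46- CDPs, 10.00, 9.92 and 9.94 in Zbtb46+ CDPs and 10.52, 10.40 and 10.36 in Pre-CD8 DCs. The Zbtb46+ arrays lay below all 6 others, and the other populations overlapped. Slc3a2 fell by 0.52 in Zbtb46+ CDPs against Zbtb46- CDPs (SE 0.0749, adjusted p = 0.00219) and rose by 0.47 in Pre-CD8 DCs against Zbtb46+ CDPs (adjusted p = 0.00637), differences that share the Zbtb46+ arrays. Pre-CD8 DCs and Zbtb46- CDPs differed by -0.04 (95% interval -0.21 to 0.13, adjusted p = 0.849).

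Slc7a5 encodes LAT1, the light chain that imports leucine and other large neutral amino acids with the Slc3a2 product. It read 9.66, 9.86 and 9.68 in Zbtb46- CDPs, 9.69, 8.88 and 8.90 in Zbtb46+ CDPs and 9.47, 9.56 and 9.47 in Pre-CD8 DCs. Replicates 2 and 3 of the Zbtb46+ CDPs were below all other arrays and replicate 1 was not. With all arrays Slc7a5 did not pass the test at either step (-0.58, adjusted p = 0.0817, and 0.34, adjusted p = 0.388). Without the 2 arrays low in Xist the differences were -0.88 (adjusted p = 0.000523) and 0.61 (adjusted p = 0.00207).

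Slc43a2, which encodes the neutral amino acid carrier LAT4, had the same outlying array. Its Zbtb46+ arrays read 9.68, 8.71 and 8.62, beside 8.97, 8.91 and 8.85 in Zbtb46- CDPs. In Pre-CD8 DCs it read 9.11, 9.05 and 9.06, and it did not pass the test in any comparison (adjusted p 0.805 to 0.901). Without replicate 1 of the Zbtb46+ CDPs it was lower in Zbtb46+ than in Zbtb46- CDPs by 0.25 (log2 difference -0.25, adjusted p = 0.0309) and higher in Pre-CD8 DCs than in Zbtb46+ CDPs by 0.41 (adjusted p = 0.00702). Without both arrays low in Xist the first difference was -0.22 and did not pass (adjusted p = 0.0557), while the second passed (adjusted p = 0.00507).

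The other light chains moved in different directions. Slc7a8 encodes LAT2, a carrier of small and large neutral amino acids. It read 5.71, 5.84 and 5.75 in Zbtb46- CDPs, 5.73, 5.81 and 5.86 in Zbtb46+ CDPs and 6.70, 7.38 and 7.03 in Pre-CD8 DCs. All CDP arrays were below the table median and the 3 Pre-CD8 arrays were above all of them. The rise in Pre-CD8 DCs was at least 1.23 against Zbtb46+ CDPs (SE 0.147, adjusted p = 0.00147) and at least 1.27 against Zbtb46- CDPs (adjusted p = 0.000354). Slc7a7, the light chain y+LAT1 for cationic amino acids, rose by 0.65 in Pre-CD8 DCs against Zbtb46+ CDPs (7.88 ± 0.05 against 7.24 ± 0.27, adjusted p = 0.019), a call lost without any 1 of the Pre-CD8 arrays, and by 0.73 against Zbtb46- CDPs (adjusted p = 0.00427). Its close relative Slc7a6, y+LAT2, went down instead. It averaged 8.01 ± 0.14 in Pre-CD8 DCs and 8.96 ± 0.10 in Zbtb46- CDPs, a fall of 0.96 (adjusted p = 0.00269). Between the CDP populations Slc7a6 fell by 0.63 (adjusted p = 0.0262), a call lost without replicate 2 or without replicate 3 of the Zbtb46+ CDPs, and without replicate 1 or without replicate 3 of the Zbtb46- CDPs, and in a fit of these 2 groups alone. The cationic amino acid carrier Slc7a1 averaged 9.56, 9.68 and 9.58 along the 3 populations, with adjusted p of 0.626 or more. The cystine carrier Slc7a11 was dim throughout, between 4.27 and 4.48 on the 9 arrays.

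Slc43a1, which encodes LAT3, a sodium-independent carrier of leucine and other neutral amino acids, had the largest fall of the 111. It read 9.24, 8.97 and 8.88 in Zbtb46- CDPs, 7.12, 7.55 and 7.72 in Zbtb46+ CDPs and 6.66, 6.85 and 6.54 in Pre-CD8 DCs. No arrays of different populations overlapped. Over the whole span the log2 difference was -2.34 (SE 0.162, adjusted p = 1.46e-05), a fall of at least 5.08-fold. It fell by 1.56 in Zbtb46+ CDPs against Zbtb46- CDPs (adjusted p = 0.000399) and by at least 0.78 in Pre-CD8 DCs against Zbtb46+ CDPs (adjusted p = 0.0224). The second call was lost in a fit of its 2 groups alone, without replicate 2 or 3 of the Zbtb46+ CDPs and without replicate 1 or 3 of the Pre-CD8 DCs, each left out alone.

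Slc43a3, a purine nucleobase carrier, read 11.82, 11.83 and 11.77 in Zbtb46- CDPs, 11.46, 11.53 and 11.33 in Zbtb46+ CDPs and 10.41, 10.73 and 10.42 in Pre-CD8 DCs. The populations did not overlap. It fell by 0.92 in Pre-CD8 DCs against Zbtb46+ CDPs (adjusted p = 0.000829) and by 1.29 against Zbtb46- CDPs (SE 0.099, adjusted p = 2.76e-05). The smaller difference between the CDP populations (-0.37, adjusted p = 0.0391) was not called after quantile normalization (-0.30, adjusted p = 0.0699), without the 2 arrays low in Xist (adjusted p = 0.0749), or with any 1 of 7 arrays left out.

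**Figure D5:**
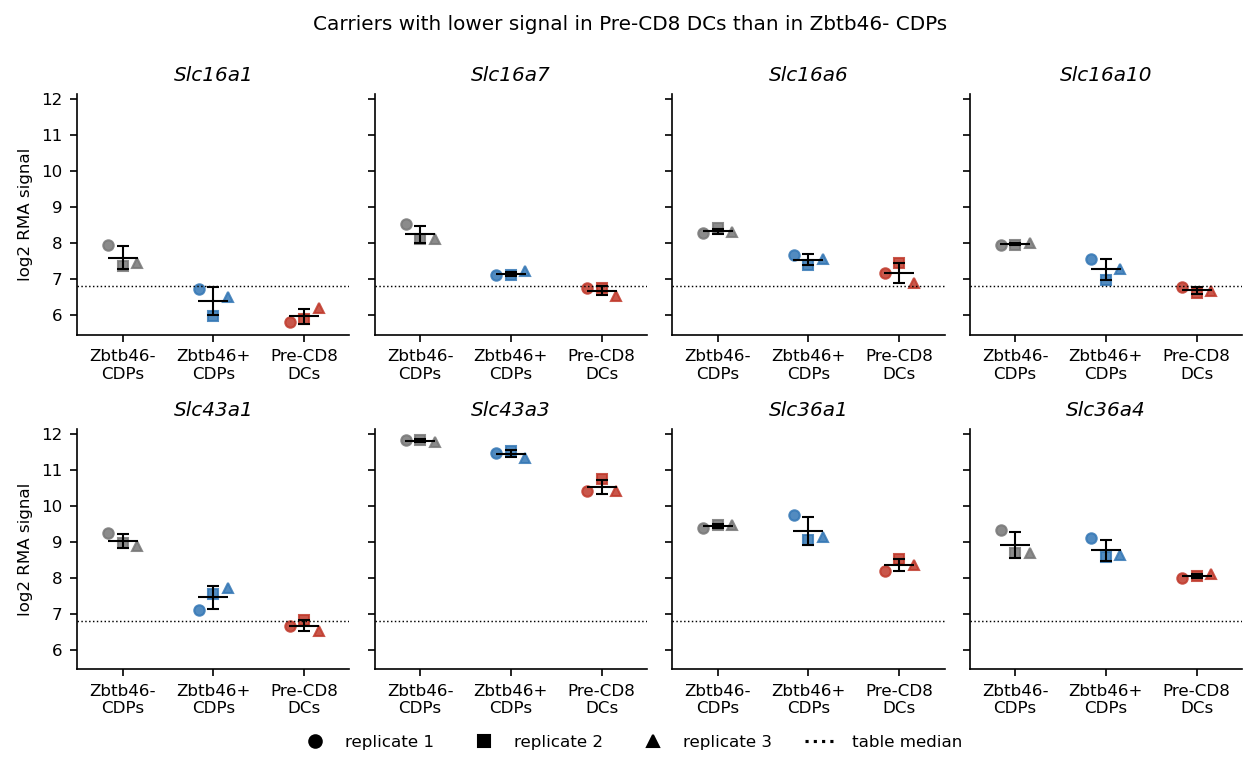
Log2 RMA signal (vertical axis) of 8 carriers that were lower in Pre-CD8 DCs than in Zbtb46- CDPs, on each array, with the mean and SD as bars (n = 3), replicates as symbols and the table median as a dotted line. Slc16a1 is below the table median from the Zbtb46+ CDPs on, and Slc43a1 falls at both steps.

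In the Slc16 family 1 member rose and 4 of 13 fell at the first step (38.5% called, beside 14.4% of all genes), and 4 fell over the whole span (30.8%, beside 15.7%), a description of a small family with no test. Slc16a1 encodes MCT1, which moves lactate and pyruvate in either direction. It read 7.95, 7.38 and 7.46 in Zbtb46- CDPs, 6.72, 5.98 and 6.52 in Zbtb46+ CDPs and 5.82, 5.90 and 6.19 in Pre-CD8 DCs. Every Zbtb46- array was above every other array, and the later populations overlapped at or below the table median. It fell by at least 1.19 in Zbtb46+ CDPs (SE 0.214, adjusted p = 0.00611) and by at least 1.63 in Pre-CD8 DCs (adjusted p = 0.000737), both against Zbtb46- CDPs.

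Slc16a7, the high-affinity carrier MCT2, read 8.52, 8.12 and 8.10 in Zbtb46- CDPs, 7.11, 7.12 and 7.22 in Zbtb46+ CDPs and 6.77, 6.75 and 6.54 in Pre-CD8 DCs. The 3 populations did not overlap. It fell by 1.10 in Zbtb46+ CDPs against Zbtb46- CDPs (SE 0.121, adjusted p = 0.000539) and by at least 1.56 in Pre-CD8 DCs against Zbtb46- CDPs (adjusted p = 2.85e-05). Between Pre-CD8 DCs and Zbtb46+ CDPs the difference was -0.46 with adjusted p = 0.0558, and it passed under 6 of the alternatives tried.

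Slc16a10 encodes TAT1, a carrier of aromatic amino acids. It read 7.95, 7.96 and 8.01 in Zbtb46- CDPs, 7.56, 6.97 and 7.30 in Zbtb46+ CDPs and 6.80, 6.62 and 6.68 in Pre-CD8 DCs, without overlap between populations. It fell by 0.69 in Zbtb46+ CDPs (adjusted p = 0.00808) and by at least 1.27 in Pre-CD8 DCs (adjusted p = 0.00018), both against Zbtb46- CDPs. In Pre-CD8 DCs it fell by at least 0.58 against Zbtb46+ CDPs (adjusted p = 0.0338), a call lost in 7 of the 9 fits with 1 array left out.

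Slc16a6, which encodes MCT7, read 8.27, 8.41 and 8.32 in Zbtb46- CDPs, 7.68, 7.38 and 7.57 in Zbtb46+ CDPs and 7.17, 7.45 and 6.90 in Pre-CD8 DCs. All Zbtb46- arrays were above the others, and the later populations overlapped. It fell by 0.79 in Zbtb46+ CDPs (adjusted p = 0.00514) and by 1.16 in Pre-CD8 DCs (adjusted p = 0.000373), both against Zbtb46- CDPs. Slc16a3 encodes MCT4, the carrier that exports lactate from glycolytic cells, and it differed in direction. It rose by 0.38 in Zbtb46+ CDPs (7.86 ± 0.06 against 7.48 ± 0.10 in Zbtb46- CDPs, adjusted p = 0.00803). In Pre-CD8 DCs it was at 7.59, with a difference of -0.28 from Zbtb46+ CDPs that did not pass (adjusted p = 0.0554) and of 0.10 from Zbtb46- CDPs (adjusted p = 0.498).

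In the Slc2 family of sugar carriers 2 of 13 members were called at the first step and over the whole span (15.4% each, beside 14.4% and 15.7% of all genes) and 0 at the second, where 2 had an unadjusted p under 0.05 in limma. Slc2a1, the widespread glucose carrier GLUT1, averaged 9.34 ± 0.03 in Zbtb46- CDPs, 9.37 ± 0.11 in Zbtb46+ CDPs and 9.43 ± 0.09 in Pre-CD8 DCs. Its difference over the whole span was 0.09 (95% interval -0.09 to 0.27, adjusted p = 0.627). Slc2a3, GLUT3, had a Zbtb46+ over Zbtb46- difference of 0.37 that did not pass (adjusted p = 0.306), and with the replicate number as a block in a fit of these 2 groups adjusted p = 0.0395. Slc2a9, a urate carrier of the glucose carrier family, fell by 0.71 in Zbtb46+ CDPs (7.76 ± 0.15 against 8.47 ± 0.17 in Zbtb46- CDPs, adjusted p = 0.00584) and by 0.84 in Pre-CD8 DCs (adjusted p = 0.00171). Slc2a6, the lysosomal carrier GLUT6, fell by 0.62 in Pre-CD8 DCs (8.24 ± 0.11 against 8.86 ± 0.13 in Zbtb46- CDPs, adjusted p = 0.00159). Its difference between the CDP populations (-0.36, adjusted p = 0.0305) was lost after quantile normalization (-0.20, adjusted p = 0.304) and with the replicate block in a fit of these 2 groups (adjusted p = 0.0774), and in 5 of the 9 fits with 1 array left out.

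Of the carriers coupled to sodium, Slc38a1 (SNAT1), which loads cells with glutamine and other neutral amino acids, fell by 0.54 in Pre-CD8 DCs (10.81 ± 0.08 against 11.34 ± 0.08 in Zbtb46- CDPs, adjusted p = 0.00823). A dimmer probe set of Slc38a1 gave -0.30 and did not pass (adjusted p = 0.264). Slc38a2, SNAT2, averaged 9.91, 9.61 and 9.57 along the 3 populations, and its whole-span difference of -0.34 had adjusted p = 0.0898. Slc1a5 (ASCT2), a neutral amino acid exchanger used for glutamine, averaged 10.58, 10.80 and 10.83, and its whole-span difference of 0.25 had a 95% interval of -0.06 to 0.56 (adjusted p = 0.343). The betaine and GABA carrier Slc6a12 rose by 0.73 in Pre-CD8 DCs (7.79 ± 0.20 against 7.06 ± 0.08 in Zbtb46- CDPs, adjusted p = 0.00162) and by 0.49 in Zbtb46+ CDPs (adjusted p = 0.0169). The second call was lost without replicate 1 or 3 of the Zbtb46- CDPs or replicate 2 of the Zbtb46+ CDPs. The myo-inositol carrier Slc5a3 fell by 0.52 in Pre-CD8 DCs (7.14 ± 0.11 against 7.66 ± 0.11 in Zbtb46- CDPs, adjusted p = 0.0153), a call lost without replicate 1 or 2 of the Zbtb46- CDPs and without replicate 2 or 3 of the Pre-CD8 DCs. Slc38a6 completed the called members with a fall of 0.46 over the whole span (adjusted p = 0.0265). Its call was lost without any 1 of the Zbtb46- arrays, without replicate 2 or 3 of the Pre-CD8 DCs and with the replicate block in a fit of these 2 groups (adjusted p 0.0514 to 0.108). With the replicate number as a block in a fit of the CDP populations alone, Slc5a3 (-0.39, adjusted p = 0.0433), Slc15a2 (-0.35, adjusted p = 0.0369), Slc38a6 (-0.31, adjusted p = 0.0488) and Slc38a10 (-0.39, adjusted p = 0.0491) passed at the first step.

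In the Slc1, Slc5 and Slc6 families 6 of 7, 10 of 13 and 14 of 21 members were dim in all populations. Slc5a3 and Slc6a12 were their only called members, beside 22% of all genes called at least once. Over all families a further 20 members lay above the table median in at least 1 population without a call in the fit of all 9 arrays. Their differences ran from -0.58 to 0.43 over the 3 comparisons, with adjusted p of 0.0592 or more.

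Genes that act with the carriers were counted from 5 lists, beside which 14.4% of all genes were called at the first step, 6.62% at the second and 15.7% over the whole span. Of 6 partners and regulators of surface carriers measured, 0 were higher and 1 lower in Zbtb46+ over Zbtb46- CDPs, 1 and 1 in Pre-CD8 DCs over Zbtb46+ CDPs, and 2 and 1 in Pre-CD8 DCs over Zbtb46- CDPs (16.7%, 33.3% and 50% called, of few genes). Emb, which encodes embigin, the partner of MCT2, was at 10.58 ± 0.05 in Pre-CD8 DCs and 12.34 ± 0.08 in Zbtb46- CDPs, a log2 difference of -1.76 (adjusted p = 7.38e-05) with a first step of -1.12 (adjusted p = 0.00198). Txnip and Arrdc4, arrestin-like proteins that draw glucose carriers from the surface, rose over the whole span by 0.75 (adjusted p = 0.00153) and 1.17 (adjusted p = 0.00418).

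Of 14 lysosomal carriers outside the named families, 1 was higher and 2 lower at the first step (21.4% called, beside 14.4% of all genes), 1 and 1 at the second (14.3%, beside 6.62%), and 2 and 1 over the whole span (21.4%, beside 15.7%). Slc66a1, which exports cationic amino acids from lysosomes, rose by 2.01 in Zbtb46+ CDPs (9.40 ± 0.30 against 7.39 ± 0.30 in Zbtb46- CDPs, adjusted p = 0.000171) and stood at 9.63 ± 0.04 in Pre-CD8 DCs. Slc49a4, another lysosomal membrane carrier, fell by 2.18 in Pre-CD8 DCs (7.57 ± 0.23 against 9.75 ± 0.12 in Zbtb46- CDPs, adjusted p = 3.04e-06). Spns1, which clears lysophospholipids from lysosomes, was 0.36 lower in Zbtb46+ than in Zbtb46- CDPs (adjusted p = 0.0191) and 0.35 higher in Pre-CD8 DCs than in Zbtb46+ CDPs (adjusted p = 0.037).

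Of 29 genes of amino acid sensing upstream of mTORC1, 1 was higher and 3 lower at the first step (13.8% called, beside 14.4% of all genes), 1 and 1 at the second (6.9%, beside 6.62%), and 2 and 4 over the whole span (20.7%, beside 15.7%), shares close to those of all genes at both steps. The whole-span median was 0.10, beside 0.01 over all genes. The Rag GTPase genes Rraga and Rragc rose over the whole span by 0.89 (adjusted p = 0.00627) and 0.79 (adjusted p = 0.00135). The sestrin gene Sesn1 and the transcription factor Mitf fell by 0.95 (adjusted p = 0.00048) and by at least 1.08 (adjusted p = 0.0011).

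Of 20 genes of the Atf4 response to amino acid shortage, 1 was higher and 3 lower at the first step (20% called, beside 14.4% of all genes), and 2 and 3 over the whole span (25%, beside 15.7%). At the second step 0 were called with limma, 3 having an unadjusted p under 0.05. Phgdh and Shmt2, enzymes of serine and glycine synthesis, fell over the whole span, with log2 differences of -1.92 (adjusted p = 8.77e-05) and -1.54 (adjusted p = 2.36e-05). Asns, asparagine synthetase, was dim and fell by 0.95 (adjusted p = 0.0131). The 2 genes that rose over the whole span each differed by less than 1 and are not named here.

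Of 8 genes of peptide and nucleic acid sensing in the same compartments, 2 were higher and 1 lower at the first step (37.5% called, beside 14.4% of all genes), 1 and 0 at the second (12.5%, beside 6.62%), and 3 and 1 over the whole span (50%, beside 15.7%). Irf5 and Irf7, transcription factors activated by Toll-like receptors, rose over the whole span by 1.64 (adjusted p = 0.000245) and 3.19 (adjusted p = 2.11e-07). Tlr9, a receptor for DNA, rose by 1.06 (adjusted p = 0.0353), and the RNA receptor gene Tlr7 was below the table median in every population. All 4 genes called over the whole span differed by at least 1. The 1 that fell is not named here, so the named genes show only the rises.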

How the data were processed

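Total RNA of sorted bone marrow cells was prepared with a kit for very small inputs and hybridized to Affymetrix arrays, per the labels' protocols. The deposited intensity of each probe set is an RMA signal made in Affymetrix Expression Console, per the submitters' processing notes, with versions and settings not given in the sources used here. The values were linear (7.45 to 20455.6, array medians 110.2 to 118.0), so log2 was taken, without further scaling. Of 28853 probe sets 21789 had 1 gene symbol, 1621 had several and were left out, and 5443 were not in the probe table. For genes with several probe sets the one with the highest mean was used (3 members). The number of arrays limits the precision.

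Limma 3.58.1 (lmFit, eBayes) in R 4.3.3 was fitted to all 19938 genes and 9 arrays with group means, and p-values were adjusted by Benjamini-Hochberg over all genes for each comparison. Intervals are 95% from the same fit. The fit was tried on simulated data for the first comparison only, with independent noise on each array. It called 25 of 67 genes changed by 0.5, 55 of 67 changed by 1 and 66 of 66 changed by 2. Of its calls 5.8% were false. Far fewer genes were changed in the simulation than the 14.4% called in the data, and the CDP arrays correlated as given below. These rates therefore need not hold for the data. The members, lists and rule for named genes (members called with a difference of at least 0.5, and a fixed list of well-known carriers) were chosen with earlier results of these data known. Up to 4 called genes with the largest change were to be named for each other list. The 1 that fell in the list of peptide and nucleic acid sensing and the 2 that rose in the Atf4 list were left unnamed. Slc38a6 and Slc38a10 were named after their values were seen. The arrays low in Xist are those more than 2 below the median of the 9. Residuals of same-numbered arrays correlated by 0.51, 0.42 and 0.36 between the CDP populations, over the limit of 0.1 in every pair, by 0.11, 0.07 and 0.17 between Pre-CD8 DCs and Zbtb46+ CDPs and by -0.01, -0.03 and 0.03 between Pre-CD8 DCs and Zbtb46- CDPs. Differently numbered CDP arrays also correlated, replicate 2 of the Zbtb46+ with replicate 3 of the Zbtb46- CDPs by 0.38 and 3 with 2 by 0.15. Replicate 1 of either CDP population and the other numbers gave -0.51 to -0.31. The correlations set replicate 1 apart and do not show that 2 pairs with 2 or 3 with 3. Blocking by number was used as an alternative, and blocked values are given for the CDP populations where a call changed. Alternatives were 2 scalings, a filter on the 30% dimmest genes, other probe set rules, array weights, an intensity trend with robust moderation, replicate blocks, fits restricted to the 2 groups compared, each array left out, the 2 arrays low in Xist left out, and a minimum difference of 1. Figures were drawn with matplotlib 3.10.9 in Python 3.11.15.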

Additional observations from a re-analysis of the deposited data

How the results depend on the processing

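For the 43 called differences of members named by the rule, 27 stayed called in the same direction under every alternative fit and 16 lost the call under at least 1, 4 of them only when 1 array was left out. The minimum difference of 1, which by construction drops smaller differences, is not counted there. None of the 43 changed sign. Array weights gave 32 members called at the first step, 35 over the whole span and 40 by the F test, in place of 14, 21 and 22, beside 32.2%, 34.9% and 43.6% of all genes. Requiring a difference of at least 1 left 5, 2 and 10 members in the 3 comparisons, beside 2.34%, 1.22% and 4.22% of all genes. Without the 2 arrays low in Xist 22 members were called at the first step and 17, in place of 9, at the second, beside 22.5% and 20.4% of all genes. Leaving out 1 array gave 10 to 27 members at the first step (8.99% to 26.4% of all genes), 5 to 11 at the second (3.32% to 13.4%), 18 to 26 over the whole span (11.3% to 21.6%) and 18 to 29 by F (13.2% to 31.5%). The replicate block with all 9 arrays gave 16, 10 and 23 members, beside 17.4%, 7.24% and 17.4% of all genes. In fits of the 2 groups compared only, the replicate block gave 18, 3 and 22, beside 15.9%, 2.53% and 17.7%, and the 3 called at the second step were among the 9 of the unblocked fit. The first-step difference of Slc43a2, 0.09 with all arrays, ranged from -0.25 without replicate 1 of the Zbtb46+ CDPs (called, adjusted p = 0.0309) to 0.28 without replicate 3. The cause of these changes was not tested. Values that changed sign without a call in either fit numbered 54 of 1887. Signals at or below the table median limit 60 members, where an absent call does not show that transcript was unchanged.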
